A study of Rattus norvegicus with 12 samples.

Results

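Negr1, Cd200, Serpinb7, Prrx2 and Foxc2 were the 5 well-detected, named genes outside the zinc finger family with the largest falls in H9C2 cells that carried a LITAF vector through hypoxia and reoxygenation, against cells with an empty vector under the same conditions. They are 5 of the 16002 genes used from the deposited table, and all 5 passed the filter on low counts. They were chosen from the H_R_OE against H_R comparison itself. The choice took genes whose 4 H_R_OE libraries all lay below the 4 H_R libraries, with an adjusted p under 0.05 and a mean log2 CPM (CPM being the count scaled to a common library size) of at least 2. Their difference between H_R_OE and H_R is therefore given as a description with no test.

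H9C2 is a single established line of rat heart myoblasts, and all 12 libraries came from it. The H_R_OE group (4 libraries) received a lentivirus that overexpresses LITAF, then 8 h at 1% oxygen and 2 h of reoxygenation. The H_R group (4 libraries) received an empty lentivirus before the same 8 h and 2 h. The NC group (4 libraries) stayed at normal oxygen with no lentivirus. A comparison with NC therefore holds the vector and the hypoxia and reoxygenation together, and these cannot be told apart. The promoter that drives LITAF in the vector is not given in the sources used here. The labels call the libraries biological replicates and put all of them in 1 batch. Whether these were separate cultures is not stated. The p-values below therefore cover the spread between libraries, which may be technical.

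LITAF is a membrane protein of late endosomes and lysosomes, and the study asks how raising it changes gene expression in cells stressed by low oxygen. The 5 genes are not known as members of 1 pathway. Negr1 and Cd200 encode surface glycoproteins of the immunoglobulin superfamily. Negr1 is a GPI-anchored IgLON protein best known for cell adhesion and neurite growth in the brain. Cd200 binds the receptor Cd200r1 on myeloid cells and restrains them. Serpinb7, also called megsin, is a clade B serpin, a family of protease inhibitors that mostly stay inside the cell, and was first described in human mesangial cells. Prrx2 is a paired-related homeobox transcription factor of limb and face mesenchyme, where it overlaps in function with Prrx1 in mice. Foxc2 is a forkhead transcription factor of mesenchyme and of blood and lymph vessels, and its loss in humans causes lymphedema-distichiasis.

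Promoter sequences from RefSeq (GRCr8), from 250 bases before to 50 bases after 1 annotated start, were found for 4 of the 5 genes, the exception being Foxc2. They are shown for Negr1, the gene with the largest difference, for Cd200, the gene with the most reads, and for Serpinb7, whose pattern across the 3 groups was closest to that of Cd200. Capitals mark matches to the motifs searched, on either strand. The windows are chr2:248283226-248283525 for Negr1, chr11:68916065-68916364 for Cd200 and chr13:23910056-23910355 for Serpinb7, all on the plus strand. The annotated Serpinb7 gene spans chr13:23884466-23956834 and the Negr1 gene chr2:248283164-249015538. Both of these windows therefore lie inside the gene and not at its first base. The annotated Cd200 gene begins at chr11:68916200, within its window and ahead of the start taken here. Which start these cells use was not examined.
Negr1: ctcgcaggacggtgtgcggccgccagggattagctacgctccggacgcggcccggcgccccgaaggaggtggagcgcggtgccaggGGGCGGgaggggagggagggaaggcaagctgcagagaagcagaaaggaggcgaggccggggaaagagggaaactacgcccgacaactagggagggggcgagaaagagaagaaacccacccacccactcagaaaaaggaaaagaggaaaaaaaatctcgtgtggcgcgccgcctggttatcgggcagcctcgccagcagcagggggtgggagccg
Cd200: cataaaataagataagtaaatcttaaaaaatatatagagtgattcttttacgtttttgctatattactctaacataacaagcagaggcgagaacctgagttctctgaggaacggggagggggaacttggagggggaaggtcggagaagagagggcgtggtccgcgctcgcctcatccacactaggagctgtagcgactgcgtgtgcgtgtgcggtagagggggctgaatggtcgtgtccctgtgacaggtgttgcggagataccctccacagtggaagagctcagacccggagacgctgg
Serpinb7: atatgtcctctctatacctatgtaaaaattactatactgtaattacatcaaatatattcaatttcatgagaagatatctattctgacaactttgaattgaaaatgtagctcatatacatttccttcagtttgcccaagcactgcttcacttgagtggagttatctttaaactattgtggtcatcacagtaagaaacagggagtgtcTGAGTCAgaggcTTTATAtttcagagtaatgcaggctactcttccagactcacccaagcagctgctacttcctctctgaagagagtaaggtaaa

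The 3 sequences differ in base composition and in the motifs they hold. The Negr1 window was 65.7% G and C, against 51.3% for Cd200 and 36.3% for Serpinb7, and the median of all 33469 promoters in the table was 51.7%. The motifs searched were the GC box GGGCGG, the AP-1 site TGANTCA, the EGR1 site GCGTGGGCG, the hypoxia response core ACGTG and the TATA box TATAAA. Negr1 held 1 GC box, 164 bases before its start inside the gene. Prrx2, whose window was 69.3% G and C, held GC boxes 64 and 16 bases before its start. A GC box was present in 33.1% of all promoters. Serpinb7 held an AP-1 match, present in 7.33% of all promoters, 44 bases before its start inside the gene. It also held a TATA box match on the reverse strand, 32 bases before the start, and 14.2% of all promoters had a match on either strand. The Cd200 window held none of the 5 motifs. The EGR1 site (0.544% of all promoters) and the hypoxia response core (19.3%) had no match in any of the 4 windows. A match is a description of the letters and does not show that a factor binds there.

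The groups were compared in libraries of similar depth, with 17.2 to 18.4 M reads in H_R_OE, 16.9 to 18.1 M in H_R and 19.2 to 20.7 M in NC. Litaf itself was read at 2691, 2008, 2532 and 2120 CPM in H_R_OE libraries 1 to 4, against 549 to 619 CPM in H_R and 456 to 491 CPM in NC, and was 2.00 ± 0.10 higher on the log2 scale in H_R_OE than in H_R (edgeR's quasi-likelihood test with Benjamini-Hochberg adjustment over 11398 genes, adjusted p = 1.38e-08). Libraries 1 and 2 of H_R_OE lay at opposite ends of the main axis of the spread within the H_R_OE and H_R groups, with scores of -0.678 and 0.635, while the 4 H_R libraries lay between -0.129 and 0.115. That axis held 52.3% of the variance within those groups, so the differences of the 5 genes between H_R_OE and H_R are also given without H_R_OE library 1 and without library 2. Cardiomyocyte markers summed to 166 to 229 CPM in H_R_OE, 80.9 to 111 CPM in H_R and 209 to 448 CPM in NC, mostly from Tnnt2, with Gata4 and Nkx2-5 next. Nkx2-5 averaged 17.1 ± 2.18 CPM in H_R_OE, 16.5 ± 2.84 CPM in H_R and 6.84 ± 1.64 CPM in NC (SD, n = 4 each), the other way round from Tnnt2 and Gata4 in H_R against NC. Actc1 was 2.79 ± 0.39 higher on the log2 scale in H_R_OE than in H_R, at 4.78 ± 2.30 CPM against 0.687 ± 0.196 CPM (SD, n = 4 each; edgeR adjusted p = 0.000413). Myh6, Myh7, Nppa, Tnni3, Myl2 and Ryr2 were near 0. The summed myoblast markers reached 178 to 229 CPM in H_R_OE, 131 to 151 CPM in H_R and 1654 to 5973 CPM in NC, and Myog alone made up 1257 to 5730 CPM in NC. Of the 8 myoblast markers tested, 5 rose and none fell in H_R_OE against H_R, where 3.73% of all genes rose. The part of this in the levels of the 5 genes was not tested. In bulk RNA, fewer cells that express a gene and less of its RNA per cell cannot be told apart.

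Negr1 had the largest difference between H_R_OE and H_R of the 5 genes. It (ENSRNOG00000021410) was read at 2.05, 0.874, 2.31 and 2.19 CPM in H_R_OE libraries 1 to 4, against 9.32, 10.4, 9.76 and 9.14 CPM in H_R and 6.22, 9.34, 9.62 and 8.84 CPM in NC. Each H_R_OE library lay below each library of the other groups, and H_R overlapped with NC. The means were 1.86 ± 0.663 CPM in H_R_OE, 9.65 ± 0.551 CPM in H_R and 8.51 ± 1.56 CPM in NC (SD, n = 4 each). Negr1 was thus 5.19-fold lower in H_R_OE than in H_R, a log2 difference of -2.38 ± 0.22 (SE), and -2.41 without H_R_OE library 1 and -2.15 without library 2. These levels rest on 36, 16, 43 and 38 reads in H_R_OE and on 163 to 183 reads in H_R, and counting error alone gives the library with 16 reads an SD of 25.0%.

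Cd200 was lowest in H_R_OE, higher in H_R and highest in NC. It (ENSRNOG00000002141) was read at 25.3, 18.8, 22.1 and 21.3 CPM in H_R_OE, against 44.4, 46.5, 46.1 and 55.8 CPM in H_R and 291, 318, 313 and 354 CPM in NC. No 2 groups overlapped. The means were 21.9 ± 2.66 CPM in H_R_OE, 48.2 ± 5.13 CPM in H_R and 319 ± 26.4 CPM in NC (SD, n = 4 each). The difference between H_R_OE and H_R was -1.14 ± 0.11 on the log2 scale, or 2.20-fold lower, and -1.20 without H_R_OE library 1 and -1.08 without library 2. In GRCr8 the Cd200 gene overlaps Cd200l1 on the same strand. Cd200l1 was not analysed here, so reads from the shared stretch cannot be told apart.

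Serpinb7 followed the same order at fewer reads. It (ENSRNOG00000002555) was read at 1.76, 0.929, 1.83 and 1.32 CPM in H_R_OE, against 2.88, 3.14, 3.36 and 4.49 CPM in H_R and 8.36, 7.61, 7.56 and 13.4 CPM in NC. The 3 groups did not overlap, and NC library 4 lay well above the other NC libraries. The means were 1.46 ± 0.420 CPM in H_R_OE, 3.46 ± 0.710 CPM in H_R and 9.23 ± 2.79 CPM in NC (SD, n = 4 each). Serpinb7 was 2.36-fold lower in H_R_OE than in H_R, with a log2 difference of -1.24 ± 0.26, and -1.32 without H_R_OE library 1 and -1.08 without library 2. Within H_R_OE and within H_R its summed reads were the fewest of the 5 genes, with 31, 17, 34 and 23 in H_R_OE, against 54 to 80 in H_R and 137 to 248 in NC.

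Prrx2, the homeobox gene, was spread widely within each group. It (ENSRNOG00000058329) was read at 3.69, 2.73, 1.99 and 2.48 CPM in H_R_OE, against 5.32, 7.24, 7.15 and 10.3 CPM in H_R and 4.08, 5.89, 4.63 and 7.17 CPM in NC. Every H_R_OE library lay below every H_R and NC library, and H_R and NC overlapped. The means were 2.72 ± 0.717 CPM in H_R_OE, 7.51 ± 2.07 CPM in H_R and 5.44 ± 1.38 CPM in NC (SD, n = 4 each). Prrx2 was 2.75-fold lower in H_R_OE than in H_R, with a log2 difference of -1.46 ± 0.24, and -1.62 without H_R_OE library 1 and -1.47 without library 2.

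Foxc2, the forkhead gene, had another order of groups, with H_R the highest. It (ENSRNOG00000047446) was read at 6.14, 7.76, 7.64 and 8.06 CPM in H_R_OE, against 16.9, 15.4, 11.9 and 16.7 CPM in H_R and 10.96, 9.73, 8.18 and 9.17 CPM in NC. The H_R_OE libraries all lay below the NC libraries, by a narrow margin, and the H_R libraries all lay above both. The means were 7.40 ± 0.859 CPM in H_R_OE, 15.2 ± 2.31 CPM in H_R and 9.51 ± 1.16 CPM in NC (SD, n = 4 each). The difference between H_R_OE and H_R was -1.04 ± 0.14 on the log2 scale, or 2.05-fold lower. It was -0.94 without H_R_OE library 1, which had the lowest Foxc2 level of its group, and -1.07 without library 2.

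**Figure D1:**
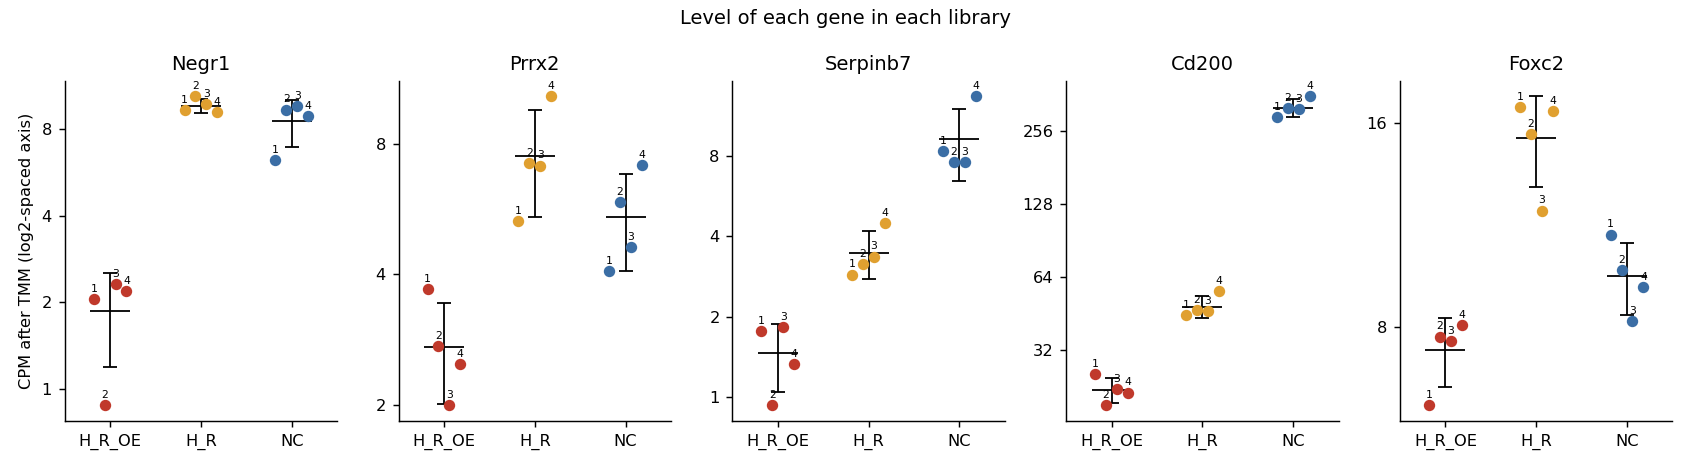
Level of each of the 5 genes in each of the 12 libraries, in CPM after TMM scaling on a log2-spaced vertical axis, by group on the horizontal axis. Numbered points are libraries and bars are the mean ± SD of 4 libraries. All 4 H_R_OE points lie below the 4 H_R points in each panel, and Cd200 averages 21.9 CPM in H_R_OE, 48.2 CPM in H_R and 319 CPM in NC.

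Over all 11398 genes tested, 4.88% were called in either direction between H_R_OE and H_R, 1.15% were called lower in H_R_OE at an adjusted p under 0.05, 8.30% had groups that did not overlap with H_R_OE lower, and 0.430% were at least 2-fold lower. The 5 genes meet all of these by the way they were chosen, and nothing is read from that count. The median log2 difference of all genes was -0.01. Foxc2 was the last gene inside the choice, at -1.04. The 3 genes just outside it were Tfrc, the transferrin receptor, at -1.02 ± 0.20, Grm8, a glutamate receptor, at -0.97 ± 0.21, and Nrn1, a neurite growth factor, at -0.97 ± 0.15. Without H_R_OE library 1 Tfrc stood at -1.28 and Grm8 at -1.27, beyond Cd200 at -1.20 and Foxc2 at -0.94. Nrn1 stood at -0.98 in that fit, also beyond Foxc2. Cyp1a1, an enzyme of foreign compound metabolism, differed by -2.37 but had a mean log2 CPM of 1.29, under the minimum of 2.

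**Figure D2:**
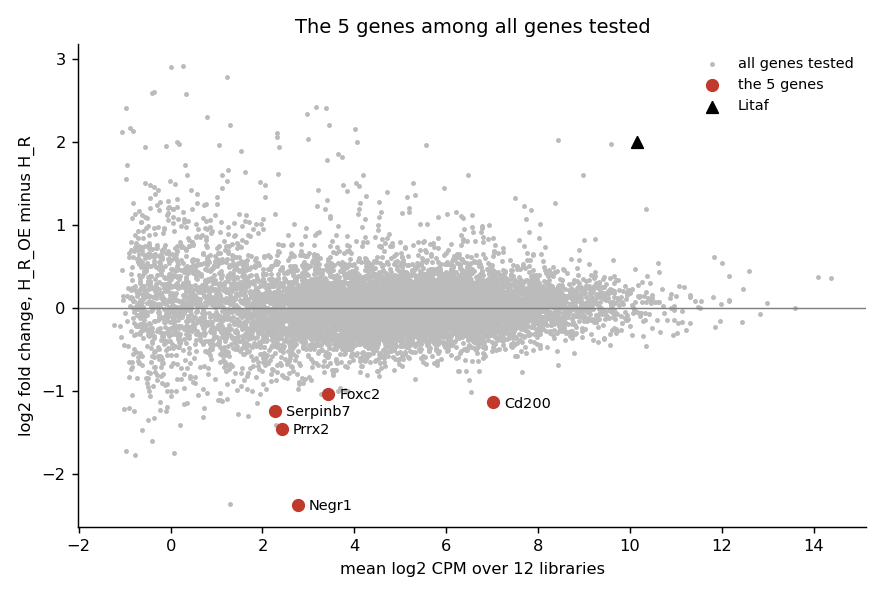
Log2 fold change of H_R_OE minus H_R (vertical axis) against mean log2 CPM over the 12 libraries (horizontal axis) for all 11398 genes tested (grey), the 5 genes (red) and Litaf (black triangle). The red points lie at the lower edge, between -2.38 for Negr1 and -1.04 for Foxc2, and Litaf lies at 2.00.

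The comparison of H_R with NC asks how the 5 genes stood after the empty vector with hypoxia and reoxygenation, with no LITAF vector. It shares the H_R libraries with the choice, which favours genes that read high in H_R. In this comparison 63.6% of all genes tested were called in either direction, 31.8% lower and 31.8% higher, so 3 of 5 called is a share near the background. Cd200 and Serpinb7 fell in H_R, Foxc2 rose, and Negr1 and Prrx2 did not pass. Cd200 fell by 2.73 ± 0.12 on the log2 scale, or 6.62-fold (edgeR's quasi-likelihood test, Benjamini-Hochberg adjusted p = 1.49e-11). Serpinb7 fell by 1.41 ± 0.22, or 2.66-fold (adjusted p = 3.75e-05 by the same edgeR test). Foxc2 was 0.68 ± 0.14 higher, or 1.60-fold (adjusted p = 0.000536 by edgeR). In all 3, each H_R library lay beyond each NC library, as it did for 28.3% of all genes with H_R lower and 30.2% with H_R higher. Negr1 differed by 0.18 ± 0.19 (adjusted p = 0.421 by edgeR), which is within its SE.

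Prrx2 lay near the threshold in H_R against NC, at 0.46 ± 0.22 with an adjusted p of 0.0791 by edgeR's quasi-likelihood test. H_R and NC libraries of the same number deviated together from their group means, and with the replicate number as a block the adjusted p was 0.0482 at the same difference. The adjusted p was 0.0264 with upper-quartile scaling and 0.0311 with library totals alone, under which the median log2 difference of all genes in H_R against NC stood at 0.12 and 0.13, against 0.01 with TMM scaling. It was 0.0294 without NC library 4 and 0.0318 without H_R library 1, and reached 0.295 in the least favourable of the alternatives run.

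The comparison of H_R_OE with NC shares the H_R_OE libraries with the choice, which favours genes that read low in H_R_OE, and shares NC with the comparison above. In it 64.6% of all genes were called, 32.6% lower and 32.0% higher, and all 5 genes fell. The H_R_OE libraries all lay below the NC libraries for each of the 5, as for 25.7% of all genes. Cd200 fell by 3.87 ± 0.12 on the log2 scale, or 14.6-fold (edgeR's quasi-likelihood test, Benjamini-Hochberg adjusted p = 1.09e-12). Serpinb7 fell by 2.65 ± 0.25, or 6.29-fold (adjusted p = 1.01e-07 by edgeR). Negr1 fell by 2.19 ± 0.22, or 4.57-fold (adjusted p = 2.88e-07 by edgeR). Prrx2 fell by 1.00 ± 0.24 (adjusted p = 0.00177 by edgeR). These 4 calls held without H_R_OE library 1 and without library 2, with Prrx2 at -1.15 and -1.01. Foxc2 fell by 0.36 ± 0.15, or 1.28-fold, with an adjusted p of 0.0387 by edgeR, and this call was lost without H_R_OE library 1 (adjusted p = 0.141) or 3 (0.0624), and without NC library 1 (0.114) or 2 (0.0667).

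**Figure D3:**
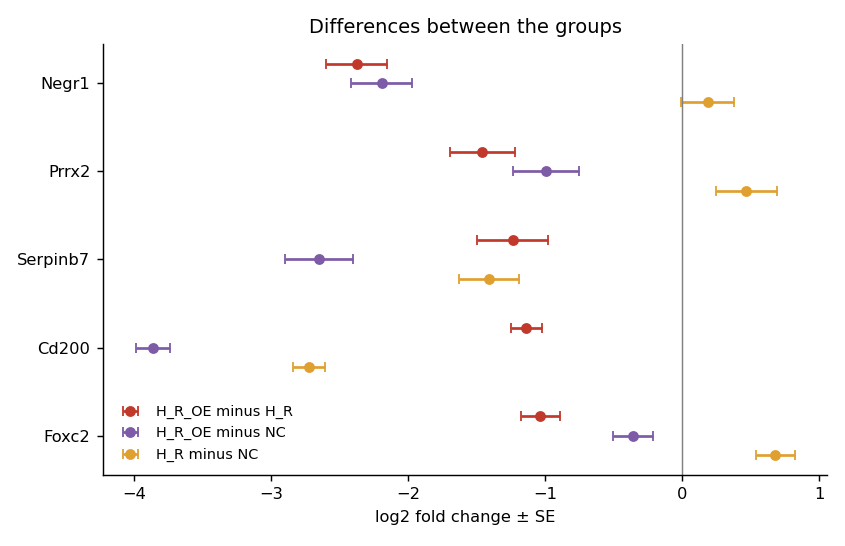
Log2 fold change ± SE of the 5 genes in the 3 comparisons, from the edgeR fit over 12 libraries, with H_R_OE minus H_R in red, H_R_OE minus NC in purple and H_R minus NC in orange. In H_R minus NC, Cd200 and Serpinb7 lie below 0, Foxc2 lies above it at 0.68, and Negr1 lies near it at 0.18.

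The 5 genes differed in the order of their levels across the groups. Cd200 and Serpinb7 were highest in NC and lowest in H_R_OE, with each neighbouring pair of groups apart. Negr1 and Prrx2 were lower in H_R_OE than in the other groups, and H_R and NC overlapped. Negr1 did not pass in H_R against NC, and Prrx2 passed there only in some of the fits run, the one with the replicate block among them. Foxc2 was highest in H_R, and its difference between H_R_OE and NC passed the threshold only in some of the fits run.

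The spread within groups also differed among the 5 genes. The coefficient of variation (SD over mean) of Negr1 was 35.8% in H_R_OE, 5.71% in H_R and 18.3% in NC. That of Cd200 was 12.2% in H_R_OE, 10.6% in H_R and 8.27% in NC, and the median over all genes tested was 12.2% in H_R_OE, 7.45% in H_R and 16.1% in NC. Prrx2 lay between 25.4 and 27.6% in all 3 groups. Library 4 was the highest of its group for Prrx2, Serpinb7 and Cd200 in both H_R and NC. For Foxc2, library 1 was the highest and library 3 the lowest in both of these groups. Within H_R_OE, library 2 had the lowest Litaf level and the lowest Negr1, Serpinb7 and Cd200, whereas library 1 had the highest Litaf level, the highest Prrx2 and Cd200 and the lowest Foxc2. With 4 libraries, no correlation with Litaf is given.

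After each group's mean was subtracted, Serpinb7 and Cd200 had a Pearson r of 0.850 across the 12 libraries, and Prrx2 and Cd200 one of 0.749. Negr1 and Prrx2 had 0.03. Foxc2 had negative values with each of the other 4 genes, between -0.31 with Negr1 and -0.15 with Serpinb7. The points share depth, and H_R and NC libraries of 1 number deviated together, so these values describe these libraries.

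Genes with the most similar pattern to each of the 5 were found by Pearson r of log2 CPM over the 12 libraries among 9798 named genes with a mean log2 CPM of at least 2. These values mostly follow the 3 group means, and are given as a description. Cd200 was closest to Cxcl12, a chemokine gene, with r = 0.996, and then to Vipas39 and Rdh14 (0.992 and 0.991). Cxcl12 averaged 33.0 ± 3.17 CPM in H_R_OE, 56.0 ± 2.77 CPM in H_R and 227 ± 30.3 CPM in NC (SD, n = 4 each). Serpinb7 was closest to Unc5c, a netrin receptor gene, with r = 0.970, then to Snx10 and Zbtb14 (0.962 and 0.961). Negr1 was closest to Inip (0.938), Hprt1 (0.935) and Zfp7 (0.920). Prrx2 was closest to Wdr4 (0.924), the odd-skipped transcription factor gene Osr2 (0.873) and Zfp174 (0.864). Foxc2 was close to Ddx39a (0.916) and Mplkip (0.902). Of the 15 genes found this way, 3 for each of the 5, 6 were also found by Spearman rank correlation and 1 after subtraction of the group means.

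Of 74 tested relatives of the 5 genes, 7 passed in H_R_OE against H_R, or 9.46%, against 4.88% of all genes, and 5 rose and 2 fell. The list counts below leave the 5 genes out and stand beside a background of 3.73% of genes called higher and 1.15% called lower in H_R_OE against H_R. That background depends on single libraries, since the 131 genes called lower became 593 without H_R_OE library 1 and 32 without H_R_OE library 4. Of the IgLON family, 2 of 4 other genes were tested and neither passed. Ntm differed by -0.20 ± 0.12 (edgeR adjusted p = 0.384) and Iglon5 by 0.64 ± 0.40 (edgeR adjusted p = 0.396). Lsamp had at most 2 reads and Opcml at most 7 in any library, so a change in either was not detectable at this depth. In H_R against NC, Ntm rose by 0.51 ± 0.12 (edgeR adjusted p = 0.00196) and Iglon5 fell by 1.23 ± 0.37 (edgeR adjusted p = 0.0089). Of 31 other adhesion molecules of neural tissue, 16 were tested, none passed in H_R_OE against H_R, and their median was 0.02 on the log2 scale. In H_R against NC, where 31.8% of all genes were called in each direction, 3 of these rose, among them Ncam1, and 7 fell. Neuron markers summed to 13.01 to 14.8 CPM in H_R_OE, 10.3 to 12.9 CPM in H_R and 13.7 to 17.4 CPM in NC, with Elavl3 and Stmn2 at 0 in every library.

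Cd200r1, the receptor of Cd200, had 0, 1, 1 and 0 reads in H_R_OE, 1, 0, 1 and 1 in H_R and 9, 0, 8 and 12 in NC, below the filter for testing. Among the receptors of Cd200 and other surface ligands that restrain immune cells, 11 of 18 were tested and none passed in H_R_OE against H_R, with a median of -0.04. Cd47, which signals against phagocytosis, averaged 45.3 ± 0.624 CPM in H_R_OE, 49.1 ± 2.55 CPM in H_R and 27.4 ± 6.65 CPM in NC (SD, n = 4 each). It differed by -0.12 ± 0.14 between H_R_OE and H_R (edgeR adjusted p = 0.687). In H_R against NC, 4 of these genes rose and 4 fell. Leukocyte markers summed to 2.07 to 2.61 CPM in H_R_OE, 1.60 to 2.52 CPM in H_R and 1.24 to 1.83 CPM in NC.

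Among the other clade B serpins, 4 of 17 were tested, 1 rose and none fell in H_R_OE against H_R. The one that rose was Serpinb1a, an inhibitor of neutrophil proteases, with 15.3 ± 0.959 CPM in H_R_OE, 8.12 ± 1.21 CPM in H_R and 4.58 ± 0.727 CPM in NC (SD, n = 4 each), a log2 difference of 0.91 ± 0.14 in H_R_OE against H_R (edgeR adjusted p = 0.000872). Serpinb6a, Serpinb6b and Serpinb9 did not pass, at -0.24 ± 0.16, 0.75 ± 0.39 and -0.11 ± 0.11. Serpinb2, Serpinb5 and Serpinb8 had at most 7 reads in any library. Markers of epithelium and keratinocytes summed to 39.96 to 76.0 CPM in H_R_OE, 29.5 to 40.3 CPM in H_R and 28.04 to 40.5 CPM in NC, and their part in the level of Serpinb7 was not tested. Nearly all of this sum was Krt8, which rose by 0.79 ± 0.18 in H_R_OE against H_R (edgeR adjusted p = 0.0167). Epcam, Cdh1, Krt5, Krt14 and Tp63 had at most 5 reads in any library. Of 13 serpins of other clades looked at, 4 were tested, and Serpinf1 rose and Serpine2 fell. Serpinf1, which encodes the antiangiogenic factor PEDF, was 1.14 ± 0.13 higher on the log2 scale (edgeR adjusted p = 5.56e-05). Serpine2, the protease nexin, fell by 0.60 ± 0.14 (edgeR adjusted p = 0.0231), a call lost without H_R library 1 (0.0993) or 3 (0.0641) and without H_R_OE library 2 (0.0629) or 3 (0.0650).

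Among mesenchymal and limb transcription factors other than Prrx2, 18 of 35 were tested, 1 rose and 1 fell in H_R_OE against H_R, with a median of 0.02. Osr2 was the one that fell, with 6.24 ± 0.446 CPM in H_R_OE, 9.62 ± 0.621 CPM in H_R and 8.60 ± 0.851 CPM in NC (SD, n = 4 each), a log2 difference of -0.62 ± 0.12 in H_R_OE against H_R (edgeR adjusted p = 0.00747). Sox9, the cartilage transcription factor, rose by 0.66 ± 0.15 (edgeR adjusted p = 0.0164), a call lost without H_R library 3 (0.0681) and without H_R_OE library 3 (0.0599) or 4 (0.0685). Prrx1, the nearest relative of Prrx2, averaged 14.6 ± 1.96 CPM in H_R_OE, 14.4 ± 0.644 CPM in H_R and 44.7 ± 4.58 CPM in NC (SD, n = 4 each). Prrx1 differed by 0.02 ± 0.12 between H_R_OE and H_R (edgeR adjusted p = 0.949) and fell by 1.63 ± 0.12 in H_R against NC (edgeR adjusted p = 5.64e-09). Fibroblast and mesenchyme markers, mostly Col1a1, summed to 18975 to 24020 CPM in H_R_OE, 16783 to 18685 CPM in H_R and 37568 to 48785 CPM in NC, with Dcn at 0 in every library. Of the 6 tested, 2 rose and none fell in H_R_OE against H_R. In H_R against NC, 3 fell, Col1a1 among them, and Thy1 and S100a4 did not pass. Vim rose there, with 3044 ± 137 CPM in H_R and 1003 ± 232 CPM in NC (SD, n = 4 each).

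Of the forkhead genes other than Foxc2, 20 of 35 were tested, 2 rose and none fell in H_R_OE against H_R, with a median of 0.07. Foxo1, a transcription factor under the control of insulin signalling, averaged 31.7 ± 1.75 CPM in H_R_OE, 17.8 ± 1.18 CPM in H_R and 23.6 ± 2.70 CPM in NC (SD, n = 4 each; edgeR adjusted p = 0.000198 in H_R_OE against H_R). Foxo4, of the same subfamily, rose by 0.43 ± 0.10 (edgeR adjusted p = 0.0238), a call lost without any 1 of the 4 H_R libraries and without H_R_OE library 2 or 4 (0.0711 to 0.0873). Foxc1, the closest relative of Foxc2, averaged 9.64 ± 0.423 CPM in H_R_OE, 11.1 ± 0.921 CPM in H_R and 15.2 ± 4.79 CPM in NC (SD, n = 4 each). Foxc1 differed by -0.20 ± 0.19 between H_R_OE and H_R (edgeR adjusted p = 0.598). Foxf1 differed by -0.06 ± 0.11 (edgeR adjusted p = 0.798). Endothelial and lymphatic markers summed to 0.218 to 0.568 CPM in H_R_OE, 0.0570 to 0.853 CPM in H_R and 0.222 to 1.47 CPM in NC, and none of the 10 was tested.

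**Figure D4:**
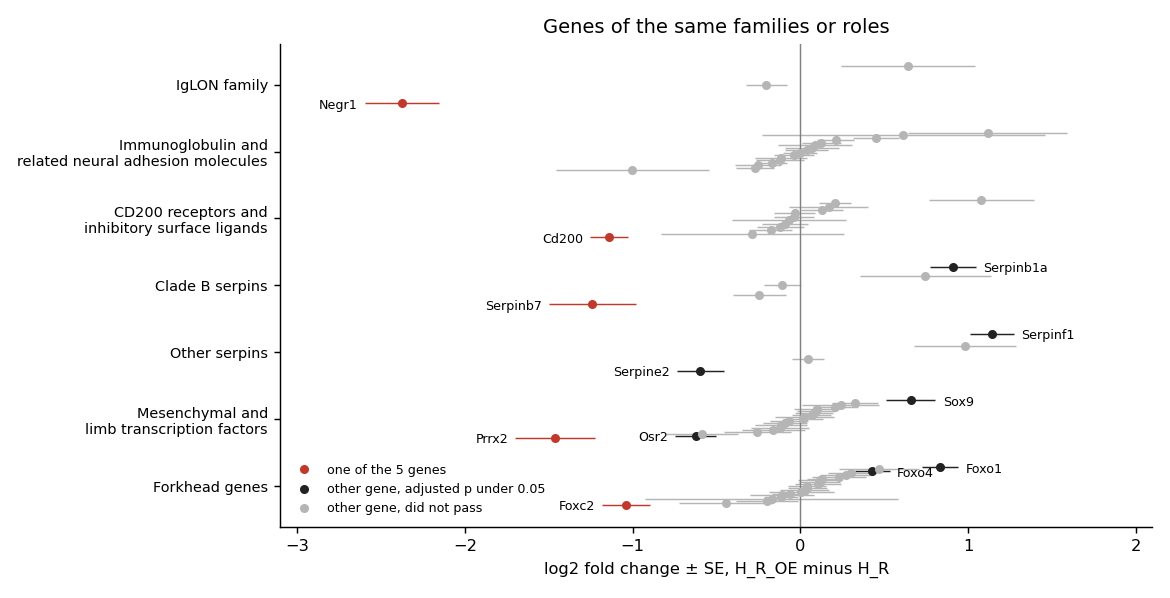
Log2 fold change ± SE of H_R_OE minus H_R (horizontal axis) for tested genes of the families or roles of the 5 genes, by list. Red points are the 5 genes, black points are other genes with an adjusted p under 0.05 and grey points did not pass. The 5 genes lie between -2.38 and -1.04, and the black points below 0 are Osr2 at -0.62 and Serpine2 at -0.60.

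Genes next to the 5 in the GRCr8 order were looked at by symbol. None of the 4 tested neighbours passed in H_R_OE against H_R, and Zranb2 and Asb6 did so under some alternatives. For Negr1, Zranb2, an RNA-binding splicing factor gene, differed by -0.44 ± 0.18 (edgeR adjusted p = 0.176), with 51.3 ± 15.4 CPM in H_R_OE, 69.7 ± 7.34 CPM in H_R and 82.3 ± 12.7 CPM in NC (SD, n = 4 each), and with an adjusted p of 0.0250 by edgeR without H_R_OE library 1 and 0.0371 with the replicate block. Lrriq3 differed by -0.17 ± 0.29 (edgeR adjusted p = 0.791). For Prrx2, Asb6 differed by -0.39 ± 0.12 (edgeR adjusted p = 0.0795), with 0.0473 without H_R_OE library 2, 0.0425 with the replicate block, 0.0475 with library totals and 0.0484 with only the H_R_OE and H_R groups. The replicate block has little basis in H_R_OE against H_R, where same-numbered libraries hardly deviated together (r of 0.0543 to 0.197). Ptges had at most 5 reads. For Foxc2, Mthfsd differed by -0.33 ± 0.14 (edgeR adjusted p = 0.183), and Foxl1 was not analysed here. Serpinb11 and Serpinb2 beside Serpinb7 had at most 1 and 4 reads in any library, and Btla beside Cd200 at most 1.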

How the data were processed

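Bulk RNA-seq of polyadenylated RNA was used from 12 H9C2 libraries in 3 groups of 4. According to the file headers, these estimated counts of reads per gene were deposited without normalization. As not all were whole (2.79 to 12.3% of a library's values were not), they were treated as estimated counts and rounded. No value of the 5 genes was affected. DESeq2 and edgeR were used by the authors, per the submitters' processing notes, with no role or version. Aligner, genome build and use of strand: not given in the sources used here.

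The table had 16204 rows. Of these, 258 shared a gene ID, and 72 IDs whose rows differed were left out, leaving 16002 genes. edgeR's filterByExpr kept 11398. All libraries entered 1 fit with TMM scaling and a mean per group, tested two-sided with glmQLFit (robust) and glmQLFTest (R 4.3.3, edgeR 4.0.16, limma 3.58.1), adjusted by Benjamini-Hochberg over all genes at 0.05. The biological coefficient of variation common to all genes came to 14.5%. Levels are CPM after TMM, the SE is the log2 fold change over the square root of F, and log CPM used a prior count of 2. The fit was tested on counts simulated from its own means and spread, which do not hold the axis between H_R_OE libraries 1 and 2.

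The 5 genes and the gene lists were chosen with earlier results of these data known. Named beside them are Litaf, the 3 next falls, called list genes, the closest family members, the 3 most similar genes by r, and the neighbours in RefSeq order. A few others (Cyp1a1, Ncam1, Cd47) were named after their values were seen. So were the single cell type markers, Actc1, Nkx2-5, Krt8 and Vim among them. A list gene and a gene similar to Foxc2 are not reported here.

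Same-numbered H_R and NC libraries correlated in their deviations from the group means (r of 0.396, 0.302, 0.445 and 0.568), so these numbers were taken to pair the libraries by the correlation alone. For H_R_OE they did not (r of 0.0487 to 0.197 with H_R or NC), so the replicate block has little basis in comparisons with H_R_OE. Alternatives were 3 other scalings, no filter, unrounded counts, a replicate block, fits of 2 groups, DESeq2 1.42.0, and leaving out each library.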

Additional observations from a re-analysis of the deposited data

Results flagged for a closer look

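In 8 of 123 groups of 4 libraries looked at, 1 library lay far from the other 3 by Dixon's test, where chance flags about 1 in 20 groups. Of the 5 genes, only Serpinb7 had such a library: NC library 4, at 13.38 CPM, against 7.564 to 8.36 CPM in the other NC libraries. In H_R_OE, library 1 stood apart for Grm8 (4.547 CPM, others 2.13 to 2.474 CPM), Sox9 (14.78 CPM, others 22.67 to 23.04 CPM) and Serpinb6a (62.19 CPM, others 78.96 to 82.06 CPM). In H_R, library 3 stood apart for Iglon5 (0.2666 CPM, others 0.426 to 0.4562 CPM) and Mplkip (14.02 CPM, others 15.2 to 15.28 CPM). In NC, library 4 was high for Ntm (12.35 CPM, others 8.836 to 9.328 CPM) and library 3 was low for Ddx39a (155.2 CPM, others 187.7 to 191.2 CPM).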

How the results depend on the processing

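Under the 16 alternatives run, the differences of the 5 genes between H_R_OE and H_R ranged from -2.50 to -2.15 for Negr1, -1.62 to -1.26 for Prrx2, -1.37 to -1.08 for Serpinb7, -1.20 to -1.05 for Cd200 and -1.14 to -0.94 for Foxc2 on the log2 scale. All kept their direction, but the choice required all 4 H_R_OE libraries to lie below the 4 H_R libraries. Leaving out 1 library could therefore hardly reverse it, and nothing is read from the kept direction. No called value changed sign. Among values that did not pass, that of Prrx1 in H_R_OE against H_R (0.02) became -0.03 with library totals and without H_R_OE library 1. In the same comparison those of Lrriq3 (-0.17) and Foxf1 (-0.06) became 0.03 and 0.0012 with 1 library left out. In H_R against NC, those of Inip (0.04), Mthfsd (0.0059), Zfp7 (-0.11), Serpinb9 (-0.02) and Foxf1 (-0.08) changed sign under some alternatives. None of these passed. The call of Prrx2 in H_R against NC was gained with upper-quartile scaling (0.58), library totals alone (0.59) and the replicate block (0.46), and its difference ran from 0.28 to 0.63 with 1 library left out. The call of Foxc2 in H_R_OE against NC was lost with upper-quartile scaling (-0.26), library totals alone (-0.28), no filter (-0.34) and a fit of the 2 groups only (-0.35), and ran from -0.41 to -0.26 with 1 library left out. The 556 genes called in H_R_OE against H_R became 873 with the replicate block, which has little basis there, 1098 with the 2 groups only and 902 with DESeq2. They ranged from 244 (without H_R library 3, or without H_R_OE library 4) to 1285 (without H_R_OE library 1). The other leave-one-out counts beyond 1.5 times were 272 without H_R library 1, 279 without H_R library 2, 365 without H_R library 4 and 322 without H_R_OE library 3. Of the calls in that comparison 76.4% were higher in H_R_OE, against 66.5% with upper-quartile scaling, 61.0% with library totals and 65.8% with the block, and 53.9% (without H_R_OE library 1) to 86.9% (without H_R_OE library 4) with 1 library left out. Calls lower in H_R_OE numbered 131, against 593 without H_R_OE library 1 and 32 without H_R_OE library 4, and calls higher numbered 425, against 692 and 212. Of the list genes 7 were called, and 4 (without H_R library 3) to 10 with 1 library left out. Of the 15 most similar genes, 1 was named again after subtraction of group means and 6 by Spearman rho. The block changed no call of the 5 genes beyond that of Prrx2. The causes were not tested. Negr1 and Serpinb7 rest on 16 to 43 reads in the H_R_OE libraries, so counting error limits their precision.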
